A study of Saccharomyces cerevisiae with 8 samples.

Results

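RNA recovered with the tagged m6A reader Pho92 was compared with RNA recovered by the same purification from untagged wild-type cells. The comparison uses 4 of the 8 libraries of the series, 2 of Pho92-HTP and 2 of untagged wild type, chosen by their labels. All 4 came from diploid meiotic SK1 cells carrying pCUP-IME1, a construct that puts IME1, whose protein starts meiosis, under control of a copper-inducible promoter. At harvest the cells had spent 5 h in sporulation medium, the last 3 h of it with 50 μM copper sulfate to induce IME1. All 4 cultures were irradiated at 254 nm for 80 s, so the 2 groups differ by the label in the HTP tag on Pho92 alone. As a spike-in, each sample also received the same amount of crosslinked fission yeast carrying Luc7-HTP. Per the series text, libraries of the same group are biological replicates, and no separate source culture is named for each. The peak lists hold no measure of the tag itself, so the genotype labels were not checked against the data.

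Pho92 is the budding yeast protein with a YTH domain, the fold that binds N6-methyladenosine (m6A) in RNA. In this yeast the mark is placed on messenger RNA during early meiosis by a methyltransferase complex whose catalytic subunit is Ime4. CRAC crosslinks RNA to protein with UV light in living cells, purifies the protein through its HTP tag (polyhistidine, a TEV protease site and protein A) under denaturing conditions and sequences the attached RNA. Untagged cells taken through the same steps show which RNA is recovered without the tag on Pho92.

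Same-strand peaks of the 4 lists that touched were merged, so that places with untagged signal alone also counted. This gave 80683 regions on 106 contigs of the SK1 assembly, with a median length of 32 nt. Merging the lists of all 8 libraries gave 105293. A region's value in a library was the summed score of its peaks, and 0 where no peak was listed. The score is the authors' h2w score, which was taken to be height squared over width. No file states this formula, which was inferred from the numbers, and all heights, height shares and height folds below depend on it. Heights recovered from it are given as read equivalents, and a peak of 1 read equivalent was the lowest in every list. The normalized score is the score times 1 spike-in factor per library.

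The 2 sources of factors disagree for the untagged libraries. Their sheets were scaled by 1.13 and 0.771. The authors' deposited table gives 0.428 and 0.746 for them, from spike-in scores of 1.03 and 0.591. The factors in the untagged sheets are those that this table lists for the libraries without UV. For Pho92-HTP both sources give 1 and 5.92. The peak numbers above a normalized score of 0.9, the authors' own threshold, were 33 and 20 in the authors' deposited table. The sheet factors gave these same numbers, and the table factors gave 24 and 20. Which set is correct cannot be told from the files, so normalized values below use the sheet factors and the table factors are named where they are used.

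The table factors brought the untagged replicates closer together. Among 429 regions listed in every one of the 4 libraries, untagged replicate 1 exceeded replicate 2 by a median of 1.20 on the log2 score scale with sheet factors, and was higher in 301. With table factors the median was -0.15 and replicate 1 was higher in 209. The median size of the log2 difference between the untagged replicates was nearly as large with either set, at 1.99 and 1.82. Between the Pho92-HTP replicates it was 1.36.

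**Figure D1:**
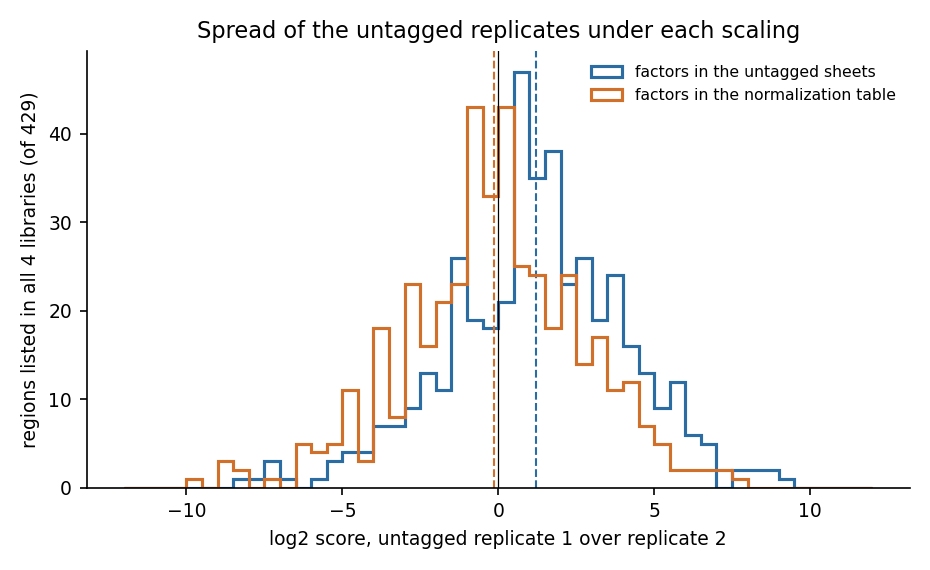
Histogram of the log2 score ratio of untagged replicate 1 to replicate 2 (x axis) for 429 regions listed in each of the 4 libraries (y axis, number of regions), with sheet factors (blue) and table factors (orange). Dashed lines mark the medians, 1.20 and -0.15, and both histograms are wide compared with the shift between them.

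Tagged cells yielded far more signal than untagged cells by every total computed. Pho92-HTP lists held 66344 and 41604 peaks and untagged lists 2659 and 2138. Above 0.9, Pho92-HTP held 1061 and 1101 peaks and untagged cells 33 and 20. With raw scores the numbers were 1061 and 490 against 32 and 25. Each Pho92-HTP library exceeded each untagged library in all of these counts.

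The summed height of all peaks, scaled by the square root of the factor, came to 3.01e+06 ± 2.01e+05 read equivalents for Pho92-HTP against 43635 ± 18186 for untagged cells (SD, n = 2 each), a ratio of 68.9. With table factors the untagged sum was 32558 ± 3207 (SD, n = 2) and the ratio 92.4. Without any factor the Pho92-HTP sums were 2.87e+06 and 1.29e+06 and the untagged sums 53223 and 35058, a ratio of 47.1. Such sums move with the length called, which was 2105687 and 1322134 nt in Pho92-HTP and 85086 and 68245 nt in untagged cells. The mean normalized score per peak was 20.0 and 47.5 in Pho92-HTP and 2.22 and 0.768 in untagged cells. The smallest two-sided exact permutation p for 2 against 2 libraries is 0.33, so totals carry no test. In bulk material, fewer cells and less bound RNA per cell cannot be told apart.

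Untagged peaks were mostly very low. Of the untagged peaks, 50.2% and 52.0% had a height of at most 2 read equivalents, against 22.8% and 29.8% in Pho92-HTP. The median height was 2.03 and 2.00 read equivalents in untagged cells and 5.88 and 4.02 in Pho92-HTP. The strongest peak alone held 74.6% and 72.0% of the raw score in the untagged libraries, and 27.6% and 25.6% in Pho92-HTP. Since the score squares the height, a few tall peaks dominate any sum of scores.

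Strong regions stood above the untagged background almost without exception. Of the 80683 regions, 870 had a normalized score above 0.9 in at least 2 of the 4 libraries and were tested. By limma at an adjusted p under 0.05, Pho92-HTP was higher in 863 (99.2%) and lower in 2 (0.23%), which left 5 without a call. Differences had a median of 16.60 on the log2 score scale, with quartiles of 15.47 and 18.20 and a median SE of 0.72. With 1 Pho92-HTP library left out, the median difference was 16.80 without replicate 1 and 16.44 without replicate 2. Fewer regions were called in these fits. Those without an untagged peak kept their call only because their 2 untagged values are equal and leave no spread. On 837 of the 870 the threshold was passed through the Pho92-HTP libraries alone, so the filter favoured higher values in Pho92-HTP and the count is a description of strong regions. The tested regions lay on 77 contigs, 453 on the plus and 417 on the minus strand.

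By median, they scored 5.97 and 6.73 (normalized) with Pho92-HTP, and 0 in both untagged libraries. As raw scores these were 5.97 and 1.14 against 0. Their median summit was 534 and 236 read equivalents in Pho92-HTP. No untagged peak was listed for 446 of the 870, an untagged peak in 1 library for 197 and in both for 227. All 446 without an untagged peak were called higher. Both untagged values are then the pseudocount itself and contribute no spread, so the size and SE of these differences rest on the listing. A region listed at 0 is not shown to be empty.

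Without any filter on score, limma called Pho92-HTP higher in 16802 of the 80683 regions (20.8%) and lower in 6 (0.00744%), with a median difference of 3.03. Of the 863 regions called higher with the filter, 826 kept their call. The strongest region in Pho92-HTP, NCSL01000092.1:4014-4046, was not called in this fit (difference 16.11, adjusted p = 0.831, limma). Nor was the strongest in untagged cells, NCSL01000092.1:4472-4504 (6.80, adjusted p = 0.993, limma). Of the 80683, 76446 had a peak in Pho92-HTP alone, which fixed the direction there before the fit. Filtering on a mean above 0.9 over the 4 libraries uses no group labels, but summed normalized scores were 437 times higher in Pho92-HTP. That filter thus also favoured high Pho92-HTP values, and left 788 regions, of which 757 were higher and 3 lower (limma). All 3 lower regions lay on contig NCSL01000092.1.

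**Figure D2:**
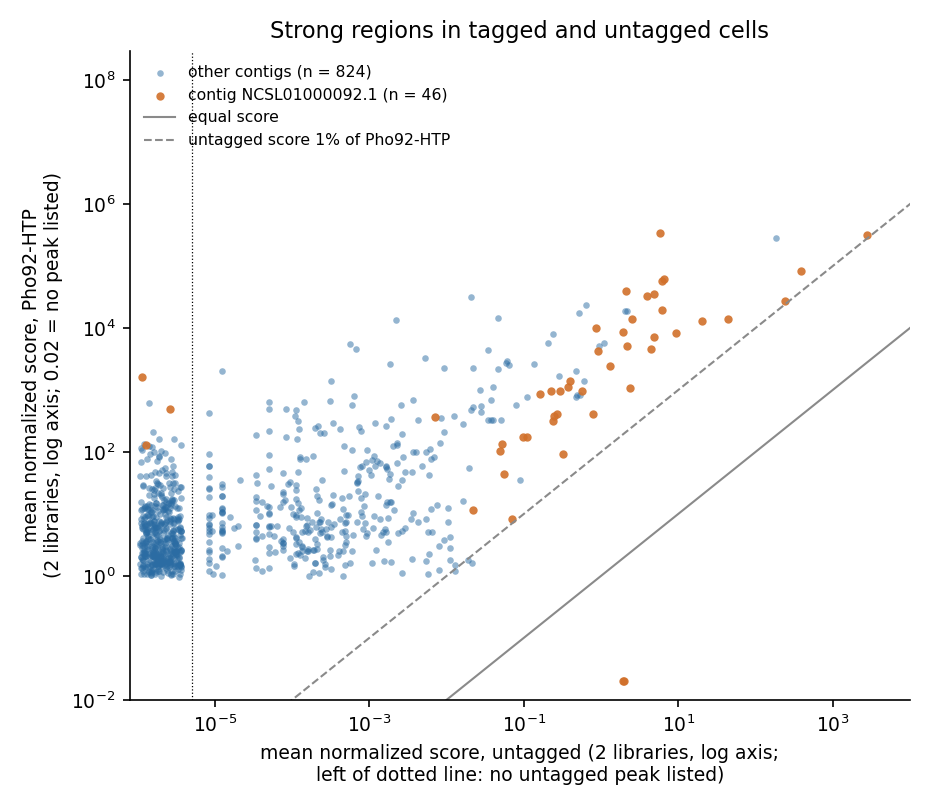
Mean normalized score of each of the 870 tested regions in untagged cells (x axis) and Pho92-HTP (y axis), 2 libraries each, on log axes. Orange points are the 46 regions on contig NCSL01000092.1. Points left of the dotted line have no untagged peak and are spread sideways for display, and the 2 overlapping points at 0.02 have no Pho92-HTP peak. All other points lie above the solid line of equal score, and those nearest the dashed line, where the untagged score is 1% of the Pho92-HTP score, include the strongest untagged regions.

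A subset of 429 regions, listed in each of the 4 libraries, allows the scores to be compared without a pseudocount. Every one of them had a higher mean log2 score in Pho92-HTP, by a median of 11.80 with sheet factors and 12.52 with table factors. In height, the sheet-factor median is a 59.8-fold difference. Fitting these regions alone with limma, with the same pseudocount added, gave a median of 11.52 and 417 higher (97.2%) and 0 lower (0%), and the unadjusted p under 0.05 gave 0 lower as well. With table factors 421 were higher (98.1%) and 0 lower (limma). With sheet factors the groups did not overlap in 418 of the 429, with table factors in 422 and with raw scores in 411. Of the 429, 205 were below the score filter.

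The direction held without any factor, where all but 1 of the 429 were higher in mean log2 raw score, by a median of 10.42. It did not hold when yield was equalised. When each library was instead scaled to the same summed summit height, which compares the make-up of the libraries and not their yield, the 429 regions split into 57 higher (13.3%) and 73 lower (17%), with 299 not called and a median difference of -0.54 (limma). Of the 73 lower regions, 9 were on contig NCSL01000092.1. Over the 870 tested regions the same scaling gave 475 higher (54.6%) and 11 lower (1.26%), and all 446 regions without an untagged peak were among the higher ones.

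The untagged height was also set against the Pho92-HTP height. The regions were mostly selected through high Pho92-HTP scores, which favours low shares, and the 2 tested regions with no Pho92-HTP peak have no such share. Among the other 868, the mean scaled untagged height exceeded 1% of the Pho92-HTP height in 113, exceeded 5% in 15 and exceeded 10% in 0. The highest share was 9.62%. With table factors the numbers were 80, 9 and 0 and the highest share 8.16%. With raw heights they were 161, 23 and 7 and the highest share 16.02%. Other scalings were not used for these shares.

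Background lay mainly on contig NCSL01000092.1, a contig of which the lists cover positions 561 to 5513. It held 66.4% and 62.7% of the summed summit height in the untagged libraries and 30.2% and 27.2% in Pho92-HTP. Its peaks were on the plus strand for 53 of 53 and 54 of 54 in untagged cells and for 60 of 62 and 56 of 58 in Pho92-HTP. Its summed scaled height was 30.3-fold higher in Pho92-HTP. Over the 67 contigs with at least 10 untagged peaks the median was 164-fold (quartiles 135 and 221, range 30.3 to 1125), so this contig had the lowest fold among them.

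Contig NCSL01000010.1 was next in the untagged libraries, with 6.48% and 7.86% of the height against 4.21% and 5.74% in Pho92-HTP. Its fold was 49.6. The following contigs held under 2% of the untagged height each. NCSL01000001.1 held 1.75% and 1.89%, NCSL01000002.1 1.53% and 1.98%, and NCSL01000008.1 1.47% and 1.64%. In Pho92-HTP these last 3 held 3.66% to 4.59%, and their folds were 171, 164 and 180. With table factors the folds on NCSL01000092.1 and NCSL01000010.1 were 40.9 and 65.03 and the median over the 67 contigs 225.

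**Figure D3:**
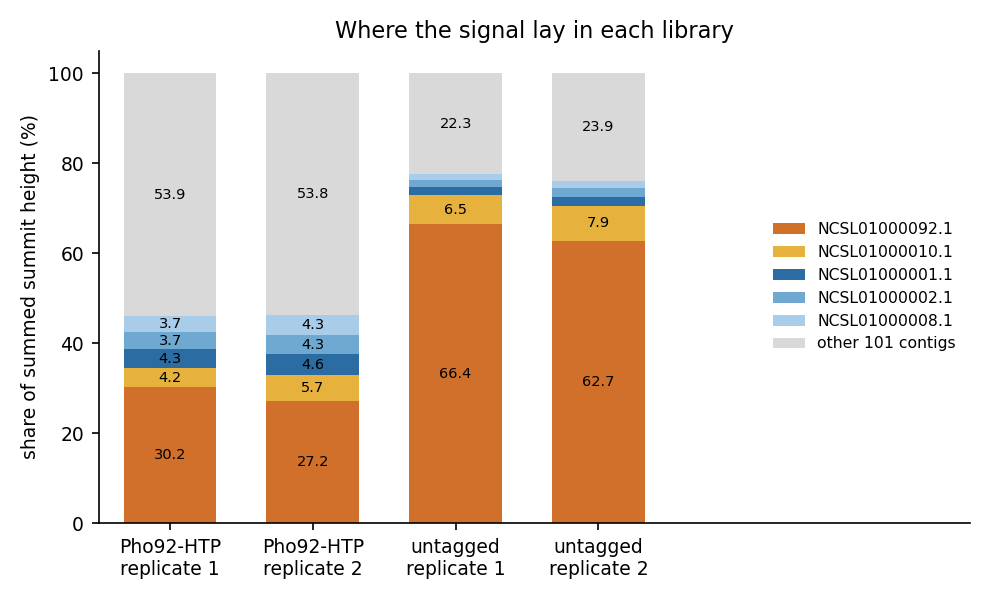
Share of the summed summit height (y axis, %) on the 5 contigs with the largest untagged share and on the other contigs, in each of the 4 libraries (bars). Contig NCSL01000092.1 makes up 66.4% and 62.7% of the untagged bars and 30.2% and 27.2% of the Pho92-HTP bars.

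Of the 46 tested regions on NCSL01000092.1, 41 were higher in Pho92-HTP, 2 lower and 3 not called, beside 99.2% called higher over all 870. The 824 tested regions elsewhere gave 822 higher and 0 lower, and in a fit on these alone 822 were higher (99.8%). Of 34 regions above 0.9 in at least 1 untagged library, 27 lay on NCSL01000092.1. Elsewhere the score filter was thus passed almost wholly through Pho92-HTP, which favoured higher values there. The 2 lower regions passed it through the untagged libraries alone, so these counts partly follow from the filter. On NCSL01000092.1 the median difference was 11.35, and elsewhere it was 16.72. For regions with a peak in all 4 libraries the medians were 11.12 (n = 38) and 11.97 (n = 391), and the difference between the contigs was not tested. Stronger Pho92-HTP regions had stronger untagged signal there, with a Spearman correlation across regions of 0.91 on NCSL01000092.1 and 0.54 elsewhere. These points share libraries, region boundaries and depth, so the correlations are descriptive.

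The strongest untagged region of all was NCSL01000092.1:4472-4504 (plus strand), with normalized scores of 4409 and 1183 in untagged cells and 128530 and 506313 in Pho92-HTP. Raw scores were 3914 and 1535 in untagged cells and 128530 and 85525 in Pho92-HTP, and table factors gave 1676 and 1146 in untagged cells. Both Pho92-HTP values exceeded both untagged values on each of these scales. The log2 normalized scores differed by 6.80 (SE 1.08), with an adjusted p of 0.00525 from limma, and by -5.54 when libraries were scaled to equal summed height. Its untagged height was 9.62% of that in Pho92-HTP, the highest share with sheet factors among the 868 tested regions with a Pho92-HTP peak.

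The 3 untagged regions that followed had the same order of groups. NCSL01000092.1:4528-4555 scored 606 and 186 in untagged cells and 59394 and 107822 in Pho92-HTP (difference 7.90, SE 0.84, adjusted p = 0.00156, limma). NCSL01000092.1:3410-3440 scored 365 and 115 against 19201 and 35079 (6.98, SE 0.86, adjusted p = 0.00242, limma). NCSL01000010.1:76774-76805 scored 265 and 109 against 139280 and 423189 (10.48, SE 0.88, adjusted p = 0.000782, limma). Their untagged heights were 6.50%, 9.16% and 2.61% of those in Pho92-HTP. With table factors the untagged scores were 230 and 180, 139 and 112, and 101 and 106. At equal summed heights the 3 differences were -4.44, -5.36 and -1.86.

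The next 6 regions were all on NCSL01000092.1 and on the plus strand. The region at 1808 to 1840 scored 85.8 and 3.86 in untagged cells and 13925 and 14150 in Pho92-HTP (limma difference 9.59, SE 1.80, adjusted p = 0.00875). Untagged values of 36.7 and 4.27 stood against 7405 and 18340 at 1591 to 1625. Those of 16.2 and 2.44 at 2688 to 2737 stood against 10996 and 5755. The others, at 1936 to 1967, 2036 to 2073 and 1880 to 1913, scored 9.61 to 10.6 in untagged replicate 1 and 1.77 to 3.15 in replicate 2. All 6 were called higher in Pho92-HTP, with differences from 9.59 to 13.36. Untagged replicate 1 was above replicate 2 in all 10 regions with sheet factors.

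**Figure D4:**
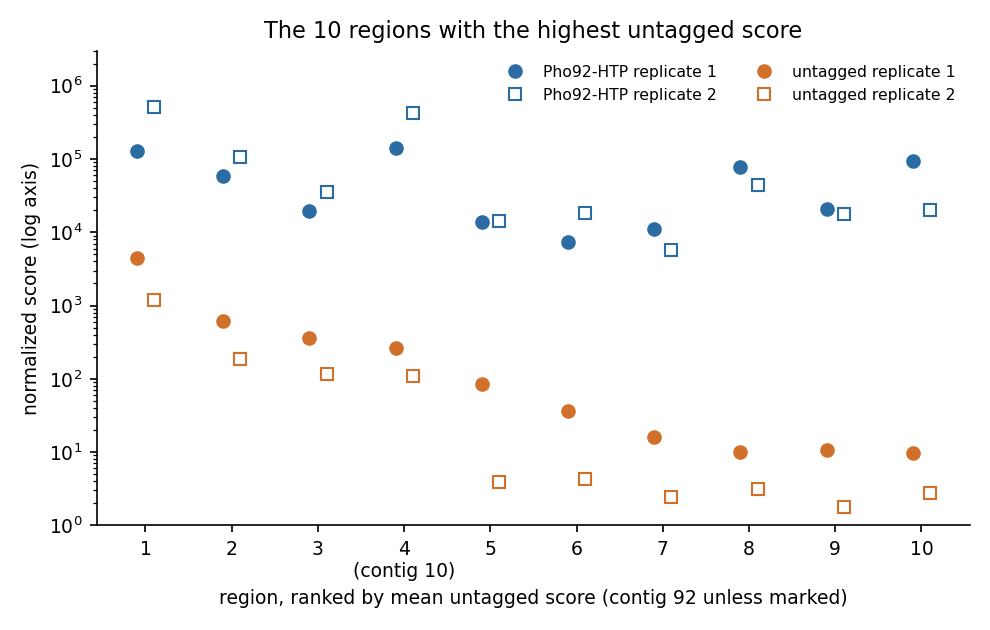
Normalized score (y axis, log scale) in each library for the 10 regions with the highest mean untagged score, ranked along the x axis. The fourth lies on contig NCSL01000010.1 and the others on NCSL01000092.1. In every region both Pho92-HTP libraries (blue) lie above both untagged libraries (orange), and the gap is narrowest for the first 3.

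The strongest Pho92-HTP regions overlapped with these. Among the 10 ranked first by mean Pho92-HTP score, 8 belonged to NCSL01000092.1 and 5 were also in the untagged top 10. The first was NCSL01000092.1:4014-4046, with 364950 and 314698 in Pho92-HTP against 9.32 and 2.46 in untagged cells (difference 16.11, SE 0.91, adjusted p = 0.000243, limma). Its untagged height was 0.383% of that in Pho92-HTP. The regions at 1709 to 1740, 4223 to 4262 and 2577 to 2621 of the same contig had untagged shares of 0.595%, 1.28% and 0.978%. The tenth, NCSL01000027.1:112221-112294 (minus strand), scored 47403 and 16797 in Pho92-HTP against 0.0364 and 0.00501 in untagged cells, where its summits were 38.2 and 24.8 read equivalents (difference 20.99, SE 1.51, adjusted p = 0.000498, limma). Over these 10 regions the untagged height ranged from 0.0844% to 9.62% of that in Pho92-HTP. They were chosen by their Pho92-HTP scores, so their limma p-values describe regions already picked as high.

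The largest differences among regions with a peak in all 4 libraries lay on other contigs. NCSL01000014.1:140111-140157 (plus strand) scored 3892 and 7177 in Pho92-HTP against 0.000234 and 0.000892 in untagged cells, where its summits were 2.81 and 7.46 read equivalents (difference 23.38, SE 1.20, adjusted p = 0.000182, limma). NCSL01000001.1:130681-130715 (plus strand) scored 18244 and 8498 against 0.00411 and 0.000377 (23.21, SE 1.63, adjusted p = 0.000467, limma). NCSL01000027.1:79096-79133 (minus strand) scored 430 and 558, and each untagged library held 2.00 read equivalents there (22.15, SE 0.80). NCSL01000002.1:433480-433522 (plus strand) scored 765 and 514 with untagged summits of 2.00 and 3.05 read equivalents. NCSL01000018.1:219702-219739 (minus strand) scored 253 and 379 with untagged summits of 3.00 and 1.00. In all 5 the untagged signal was a few reads high in at least 1 library, so these folds carry a large counting error that the fit does not hold. All 5 passed the score filter through Pho92-HTP alone and were picked by their differences, so their p-values are no separate support.

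The smallest positive differences were found both on and off the contig with most background. NCSL01000008.1:273726-273771 on the plus strand had Pho92-HTP scores of 1.47 and 2.13 and untagged scores of 0.0173 and 0.0211 (difference 6.53, SE 0.78, adjusted p = 0.00224, limma). NCSL01000039.1:54167-54234 (minus strand) scored 1.10 and 1.34 against 0.00607 and 0.0197 (6.79). NCSL01000012.1:1-79 (minus strand) scored 1.73 and 1.57 against 0.0387 and 0.00428 (6.997). NCSL01000092.1:5207-5265 scored 7.99 and 8.55 against 0.0896 and 0.0504 (6.94). These 4 were called higher, with untagged heights of 7.08% to 9.59% of those in Pho92-HTP. All 4 passed the score filter through Pho92-HTP alone, which favoured a higher call.

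Both regions called lower lay on NCSL01000092.1 and had no listed Pho92-HTP peak. They passed the score filter through the untagged libraries alone. Both Pho92-HTP values are then the pseudocount and add no spread, so the size and SE of these differences rest on the listing. NCSL01000092.1:4744-4775 scored 2.01 and 1.84 in untagged cells (difference -16.36, SE 0.14, adjusted p = 4.96e-06, limma), and NCSL01000092.1:2756-2784 scored 3.00 and 0.988 (-16.20, SE 0.62, adjusted p = 7.50e-05, limma). Within 50 nt of them Pho92-HTP held peaks of 1703 and 1568 and of 10996 and 5755. When peaks within 50 nt were merged, the joined regions (4638 to 5147 and 2688 to 2784) were higher in Pho92-HTP. Differences were 9.46 and 9.94 (adjusted p = 0.00075 and 0.00192, limma), and 0 of 799 regions were lower. Merging took in the taller Pho92-HTP peaks, so the direction at these places followed from the joining. At both places a taller Pho92-HTP peak stood beside the untagged one.

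The 5 regions not called each lacked a peak in at least 1 library. On NCSL01000092.1, the region at 1658 to 1690 scored 2140 in Pho92-HTP replicate 1 and had no peak in replicate 2, against 3.75 and 0.956 in untagged cells (difference -3.10, SE 10.05, limma adjusted p = 0.775). The region at 1992 to 2020 had scores of 19858 and 0 in Pho92-HTP and 0 and 1.74 in untagged cells, and that at 3500 to 3531 had 661 and 1296 against 1.13 and 0. NCSL01000008.1:39207-39246 scored 1.03 and 1.99 against 0 and 0.0255, and NCSL01000044.1:58083-58144 scored 0.907 and 2.77 against 0.0223 and 0. The last 3 had differences of 17.47, 10.87 and 11.12 with adjusted p of 0.0505, 0.0564 and 0.0518 (limma).

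Seen from the untagged side, most background peaks lay where Pho92-HTP also had a peak. Of the untagged peaks, 2073 of 2659 (78.0%, 95% Wilson interval 76.3% to 79.5%) in replicate 1 overlapped a peak of either Pho92-HTP library by at least 1 bp on the same strand. In replicate 2 the number was 1656 of 2138 (77.5%, 75.6% to 79.2%). On the opposite strand 6.88% and 6.83% did. The Pho92-HTP lists covered far more sequence, so these shares are not comparable with the reverse ones. Of the Pho92-HTP peaks, 4.38% and 5.84% overlapped an untagged peak. Of those above 0.9, 470 of 1061 (44.3%) and 511 of 1101 (46.4%) overlapped an untagged peak of any height, and 31 and 29 overlapped one above 0.9. Intervals count peaks as independent and cover counting error only.

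Untagged replicates shared few of their peaks, and the share found in both rose with height. Of the peaks in untagged replicate 1, 453 of 2659 (17.0%, 95% Wilson interval 15.7% to 18.5%) overlapped one in replicate 2, and 454 of 2138 (21.2%, 19.6% to 23.0%) did in the other direction. Among untagged peaks of at most 2 read equivalents, 8.53% and 12.8% were found in the other untagged library. Above 100 read equivalents 49 of 51 and 39 of 42 were found. Low peaks still made up much of what was shared, with 114 of the 453 and 142 of the 454 at most 2 read equivalents high. A peak in Pho92-HTP accompanied 74.3% and 76.3% of the lowest class and 92.2% and 92.9% of the tallest. Of the 20 peaks above 0.9 in untagged replicate 2, 19 overlapped such a peak in replicate 1, and of the 33 in replicate 1, 19 did.

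In the other direction, the share of Pho92-HTP regions with an untagged peak rose with their strength. Of the 6003 regions listed in both Pho92-HTP libraries with a mean score of at most 0.001, 2.72% had a peak in at least 1 untagged library. The share was 9.16% between 0.01 and 0.1 (n = 6761), 33.3% between 1 and 10 (n = 661), 84.7% between 100 and 1000 (n = 85) and 98.1% above 1000 (n = 53). For a peak in both untagged libraries these shares were 0.05%, 0.784%, 12.0%, 62.4% and 90.6%. Without contig NCSL01000092.1 the shares with at least 1 untagged peak were 84.3% between 100 and 1000 (n = 70) and 100% above 1000 (n = 30). Read totals were not at hand, and the part of depth in this increase was not tested.

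**Figure D5:**
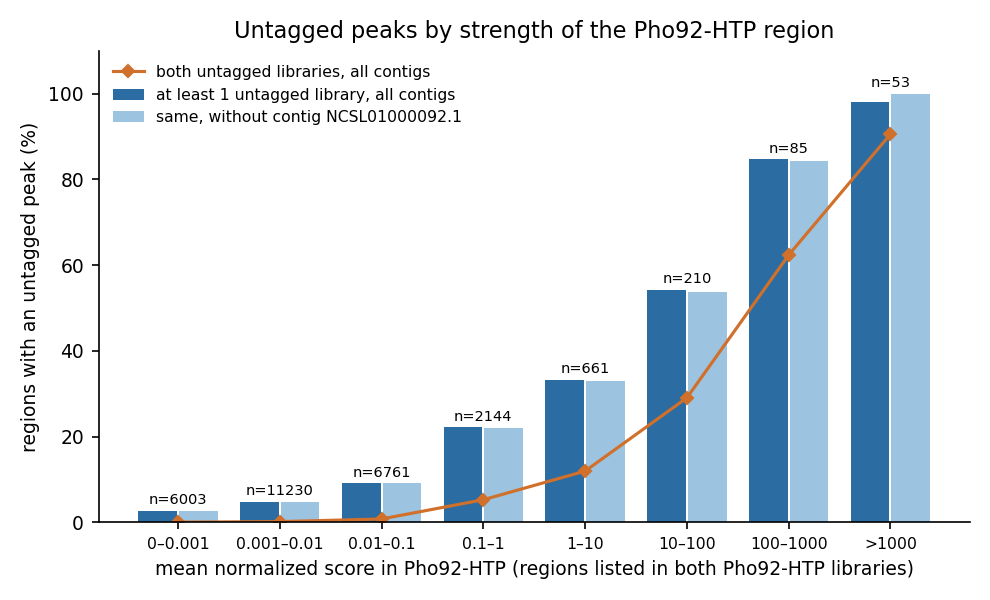
Share of regions with an untagged peak (y axis, %) by mean normalized score in Pho92-HTP (x axis), for regions listed in both Pho92-HTP libraries. Dark bars show a peak in at least 1 untagged library over all contigs, with n above them, light bars the same without contig NCSL01000092.1, and the orange line a peak in both untagged libraries. The dark bars climb from 2.72% to 98.1%.

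Where both groups had peaks, summits lay less close between the groups than between Pho92-HTP replicates. Regions were merged from touching peaks and were at most 187 nt long, so nearness itself followed from the merging. In the 224 tested regions with a peak in all 4 libraries, the strongest peaks of the Pho92-HTP replicates were a median of 1 nt apart, and 202 (90.2%) were within 5 nt. Between a Pho92-HTP and an untagged library the median was 3 to 4 nt and the share within 5 nt was 60.7% to 62.1% over the 4 pairs. Between the untagged replicates the median was 5 nt and the share 56.2%. Over all 429 regions with a peak in every library the distances were larger, with medians of 2 nt between Pho92-HTP replicates, 7 nt between groups and 9 nt between untagged replicates. The shares within 5 nt were then 67.4%, 42.2% to 45.5% and 40.1%. Untagged summits were also lower, and the part of height in these distances was not tested.

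Regions with untagged signal alone were weak. There were 992 such regions, 536 listed in untagged replicate 1 alone, 434 in replicate 2 alone and 22 in both. Of the 992, 566 (57.1%) had a height of at most 2 read equivalents and 75 exceeded 10. A Pho92-HTP peak lay within 50 nt on the same strand for 651 (65.6%), among them all 22 listed in both untagged libraries. Of the 341 with no Pho92-HTP peak that near, 0 were listed in both untagged libraries, and the highest normalized score was 0.0146, a summit of 26.1 read equivalents.

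A normalized score above 0.9 was reached by 3 of the 992, all on NCSL01000092.1. Besides the 2 regions called lower, this was NCSL01000092.1:4069-4098 (plus strand), with 4.68 and 0.891 in untagged cells and no listed Pho92-HTP peak. It lies beside the strongest Pho92-HTP region, and the neighbouring Pho92-HTP scores within 50 nt were 364950 and 314698. NCSL01000092.1:4638-4671 scored 0.825 and 0.0726, with neighbours of 305 and 518 in Pho92-HTP. The strongest elsewhere that was listed in both untagged libraries was NCSL01000007.1:21278-21311 (plus strand), with 9.96e-05 and 0.0558, summits of 2.00 and 55.4 read equivalents, and Pho92-HTP neighbours of 0.0495 and 0.0101. No region with untagged signal alone thus reached 0.9 away from a Pho92-HTP peak.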

How the data were processed

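CRAC peak lists of 4 libraries were analysed, 2 of Pho92-HTP and 2 of untagged wild type. Per the submitters' processing notes, the tools included cutadapt and Bowtie2 2.4.1, with ASM294v2 as the fission yeast build. Per the labels, read length was 75 nt. How peaks were called is not stated in the labels or headers. The authors deposited 1 list per library with an h2w score per peak and a normalized score, not pooled over replicates, and a table with the spike-in ratio used as factor and the count of peaks per library. Coordinates are printed as listed, on SK1 contigs, and whether they count from 0 or 1 is not stated. The lists name no genes and no SK1 sequence or annotation was used, so no gene or sequence is given.

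Height in read equivalents was the square root of score times width, multiplied by the area under a Gaussian curve (SD 15 nt). For 32 nt peaks this gave whole numbers, to within 0.01, in 63.3% to 91.5% per library. No read totals were at hand, so no counting error is given for the peaks. Touching same-strand peaks were merged, and log2(normalized score + 2.28e-05) was tested with limma 3.58.1 under R 4.3.3, with the trend option and Benjamini-Hochberg adjustment over the regions tested. The pseudocount is percentile 5 of the 4 lists' normalized scores. The fit held the 4 libraries, since the comparison is between these groups. For a region listed at 0, the difference rests on the pseudocount.

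Regions named are the 10 strongest in each group, the 5 largest differences with a peak in all 4 libraries, the 10 smallest differences, the 5 strongest with peaks in both untagged libraries and none in Pho92-HTP, the regions not called and the 5 contigs with most untagged height. The comparison and lists were chosen with earlier results of these data known. The procedure was also run on simulated data with known changes. These had the same spread in all 4 libraries of a region, unlike the regions without an untagged peak. Alternatives covered the factors, scaling, pseudocount, filter, merging, region value, fit and each library left out. Figures were drawn with matplotlib 3.10.9, and tables made with Python 3.11.15, scipy 1.17.1, pandas 2.3.3 and numpy 2.4.6.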

Additional observations from a re-analysis of the deposited data

How the results depend on the processing

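The number of regions higher in Pho92-HTP stayed within 1.5 times of 863 with table factors, raw scores, the pseudocounts tried, highest score, summed height, the fit on 8 libraries and no trend. It was 475 with library totals, 458 with a trimmed mean, 16802 without a filter, 300 above 9, and 417 with a peak in all 4 libraries (421 with table factors, 57 with library totals). Numbers lower, against 2, were 11 with library totals, 32 with a trimmed mean, 6 without a filter, 1 in the fit on 8 libraries and 73 with a peak in all 4 libraries and library totals. They were 0 above 9, with peaks within 50 nt merged, without contig NCSL01000092.1, and with a peak in all 4 libraries (0 also with table factors).

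Leaving out a library gave 541 to 867 higher and 1 to 3 lower. The low values were 546 without Pho92-HTP replicate 1 and 541 without replicate 2, with 446 of each having no untagged peak, and the median difference was 16.80 and 16.44. Of 31 named regions, 22 lost their call in each of these fits, and 14 lost it without a filter. With a peak in all 4 libraries, these fits gave 403 to 412 higher (411 without Pho92-HTP replicate 1, 408 without untagged replicate 1) and 0 lower, where a lone library is assumed to vary like the other group. The labels do not say that equal replicate numbers share a culture or day. Deviations of equal numbers correlated at -0.18 over 870 regions (Pearson), of which the 446 without an untagged peak have no untagged deviation. Over the 224 tested regions with a peak in all 4 libraries the correlation was -0.07 (Pearson). A replicate block gave 866 higher and 2 lower, and so did a block with crossed numbers. The crossed block was chosen after seeing the data, as were the fits without contig NCSL01000092.1 and those that combine a peak in all 4 libraries with another scaling or a library left out.

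Peaks above 0.9 numbered 490 in Pho92-HTP replicate 2 with raw scores. Above 9 there were 361 and 380 in Pho92-HTP and 11 and 4 in untagged cells. Untagged peaks overlapping Pho92-HTP peaks came to 62.6% and 63.2% with a coverage of 0.5 or more of the peak, and to 92.9% and 92.6% within 50 nt. With such merging 329 regions had untagged peaks alone, 1 of them in both libraries.

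Some named regions changed sign. With library totals, differences on NCSL01000092.1 were -5.54 at 4472, -4.44 at 4528, -5.36 at 3410, -2.75 at 1808, -2.48 at 1591, -2.04 at 2688, -0.22 at 2036 and -5.40 at 5207. They were -1.86 on NCSL01000010.1, -5.81 on NCSL01000008.1 at 273726, -5.55 on NCSL01000039.1 and -5.34 on NCSL01000012.1. With a trimmed mean the same 12 were -7.44, -6.35, -7.26, -4.65, -4.38, -3.94, -2.13, -7.30, -3.77, -7.71, -7.45 and -7.24. In addition, the regions at 1936, 1880, 4223, 2577 and 1992 of NCSL01000092.1 were at -0.88, -1.18, -1.58, -0.45 and -0.67. These scalings moved the median over all 870 regions from 16.60 to 15.47 and 15.50, and over the 227 with both untagged peaks from 14.07 to 1.82 and -0.08. Merging within 50 nt gave 9.46 at 4744, 9.94 at 2756 and 11.79 at 1658 of NCSL01000092.1. The region at 1658 was also at 1.86 with the pseudocount 1000 times larger and 10.14 without Pho92-HTP replicate 2, against -16.34 without replicate 1. That at 1992 was at -8.11 without Pho92-HTP replicate 1, 21.59 without replicate 2 and -1.37 without untagged replicate 1. Library totals multiplied the 2 untagged libraries by 2899 and 6682 and a trimmed mean by 12866 and 22295, against 1.13 and 0.771 in the sheets. Such a factor applies alike to every listed score of a library. The cause of the changes under the other settings was not tested. Untagged peaks had a median height of 2.03 and 2.00 read equivalents, so single untagged values are imprecise.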
